A study of Mus musculus with 56 samples.

Results

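The T cell receptors of 6 female mice with MYC-driven hepatocellular carcinoma were compared between tumours that carried model T cell antigens and tumours that did not. The genotype labels are MycLucOS, sgp53 for 3 animals (lucOS) and MycLuc, sgp53 for 3 animals (luc), so all 6 carry MYC, luciferase and sgp53, a guide RNA that targets the gene of the tumour suppressor p53. The construct lucOS is luciferase joined to ovalbumin-derived and other model peptides that mouse T cells recognise, and luc is luciferase alone. Receptors came from droplet libraries of dissociated single tumour nodules, in which CD45-positive immune cells and CD45-negative cells had been mixed again in equal numbers, so the immune share of a library was set by hand. The third lucOS animal gave 2 libraries, labelled T1 and T2 (replicates 3 and 4), and was counted once. What T1 and T2 stand for is not said in the labels, nor are the age or strain of the animals.

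T cells were barcodes called as cells in which a TRB contig (assembled β chain transcript) was productive and of high confidence. Where a cell had several, the one with most unique molecular identifiers (UMIs) stood for it. By that rule 5152 of the 7605 T cells of the series' 15 receptor libraries belonged to the 7 libraries described here, 3460 to lucOS and 1692 to luc. The lucOS libraries held 1282, 828, 706 and 644 T cells in replicates 1 to 4, and the luc libraries 402, 599 and 691 in replicates 1 to 3. The median T cell had 9 to 14 UMIs in its TRB contig. A second TRB contig was present in 2.02% to 7.51% of T cells per library. Nothing in the labels says whether the animals were processed together, and the p-values below measure the spread between these animals. Pairs of the 7 libraries shared 16 cell barcodes, 1 of them with the same receptor in both. No TRG contig was listed, and 2 to 15 TRD contigs per library lay in called cells, so the chains that define γδ T cells were nearly absent from the lists. How many γδ T cells the tumours held cannot be told from this, since T cells were counted by a TRB contig.

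An αβ T cell receptor is built by joining one V, one D and one J segment for the β chain and one V and one J segment for the α chain. Bases are trimmed and added at random where they join, and this junction lies in the third complementarity-determining region (CDR3), the loop that touches the presented peptide. T cells that share a β rearrangement at the level of nucleotides descend, as a rule, from one cell, so a clonotype was defined here as one TRBV, TRBJ and CDR3 nucleotide sequence. The same CDR3 protein built from different nucleotides in different animals marks separate rearrangements that ended in the same receptor, and such receptors are called public or convergent. The OT-I receptor for an ovalbumin peptide combines TRAV14 with a TRBV12 segment. TRBV13-2 is a common mouse V segment, used by the 2C receptor and by many invariant natural killer T (NKT) cells.

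The β chain with the most T cells among those found in more than 1 animal was built separately in separate lucOS animals. A TRBV14-TRBJ2-7 β chain with a CDR3 of 33 bases (11 residues) was carried by 97 of 1282 T cells of lucOS replicate 1 and by 102 of 1350 T cells of the third lucOS animal, 51 in each of its libraries. It was found in none of the other 4 animals. The β chains encode the same protein from nucleotides that differ at 2 positions, shown here in capitals, 5′ to 3′ from the conserved cysteine codon to the phenylalanine codon.
TRBV14-TRBJ2-7, lucOS replicate 1: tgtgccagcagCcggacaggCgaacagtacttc
TRBV14-TRBJ2-7, lucOS replicates 3 and 4: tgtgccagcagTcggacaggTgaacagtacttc
Their α chains matched too. All 86 T cells of this clonotype with a TRA contig in lucOS replicate 1 used TRAV10N with TRAJ16, and all 95 in the third animal used TRAV10 with TRAJ16. The α CDR3s, of 42 bases, encode the same protein and differ at 1 base, in capitals.
TRAV10N-TRAJ16, lucOS replicate 1: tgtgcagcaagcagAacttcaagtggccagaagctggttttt
TRAV10-TRAJ16, lucOS replicates 3 and 4: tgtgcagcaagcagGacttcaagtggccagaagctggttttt
TRAV10 and TRAV10N are near-identical copies, and which copy a contig is assigned to is uncertain. This receptor was the largest clonotype of lucOS replicate 1 (7.57% of T cells) and the next to largest of the third lucOS animal (7.56%).

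The next shared β chains by number of T cells used TRBV13-2 and were found in all 3 lucOS animals and no luc animal. The most numerous, TRBV13-2-TRBJ2-7 with 11 residues, was carried by 21 T cells of lucOS replicate 1, 45 of replicate 2 and 30 of replicates 3 and 4. Its 3 nucleotide forms differ at 3 positions, in capitals.
TRBV13-2-TRBJ2-7, 21 T cells in lucOS replicate 1 and 1 in replicate 2: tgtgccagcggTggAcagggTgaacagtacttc
TRBV13-2-TRBJ2-7, 44 T cells in lucOS replicate 2: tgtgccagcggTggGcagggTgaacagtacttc
TRBV13-2-TRBJ2-7, 30 T cells in lucOS replicates 3 and 4: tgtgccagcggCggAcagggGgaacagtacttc
Here the α chains differed. The commonest was TRAV8N-2-TRAJ7 in lucOS replicate 1 (17 of 20 T cells with a TRA contig), TRAV9-2-TRAJ27 in the 44 T cells of replicate 2 (23 of 23) and TRAV9-4-TRAJ45 in the third animal (20 of 20).
A TRBV13-2-TRBJ1-5 chain of 13 residues was carried by 1, 45 and 6 T cells of lucOS replicates 1, 2 and 3 to 4. Its forms differ at 1 base.
TRBV13-2-TRBJ1-5, 44 T cells in lucOS replicate 2, 2 in replicates 3 and 4 and 1 in replicate 1: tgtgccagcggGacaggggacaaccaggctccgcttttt
TRBV13-2-TRBJ1-5, 4 T cells in lucOS replicates 3 and 4: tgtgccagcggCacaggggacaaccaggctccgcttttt
TRBV13-2-TRBJ1-5, 1 T cell in lucOS replicate 2: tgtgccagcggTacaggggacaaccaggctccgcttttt
In this case the α chain was common to both animals with one. TRAV8-1-TRAJ30 with the same α CDR3 nucleotides was found in 35 of 39 T cells with a TRA contig in lucOS replicate 2 and in 6 of 6 in the third animal. The T cell of lucOS replicate 1 had no TRA contig.

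In all, 47 β chains, compared by TRBV, TRBJ and CDR3 protein, were found in 2 or more of the 6 animals. Of these, 19 were found only in lucOS animals and held 455 T cells, 12.01%, 16.9% and 11.9% of the T cells of the 3 animals. Only 3 were found in luc animals alone, with 6 T cells, and 25 were found in both groups. The 25 made up 1.09%, 3.38% and 3.26% of T cells in lucOS and 5.47%, 5.68% and 1.88% in luc. Scaled to the number of clonotypes, a pair of lucOS animals shared 33.1, 17.6 and 61.0 β chains per 1000000 clonotype pairs and a pair of luc animals 18.6, 15.8 and 5.88. The mean was 37.2 in lucOS and 13.4 in luc (SD 21.98 and 6.69 over 3 pairs each). The difference of 23.8 was 4.17 without lucOS replicate 2 and 47.5 without lucOS replicate 1. The pairs overlapped, and the two-sided exact permutation p was 0.3 (adjusted 0.4875). The 9 pairs of a lucOS and a luc animal shared 7.39 to 65.1. This range holds every lucOS pair and every luc pair but the lowest, at 5.88. This measure counts each β chain once, whatever its number of T cells. Which β chains fall in the 19, 3 and 25 follows from the choice, so their shares of T cells are a description with no test.

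The lucOS set was also looked for in the 8 libraries of tumours that carry NICD, the active part of NOTCH1, in place of sgp53. It was carried by 5 of 432, 4 of 151 and 0 of 268 T cells of the 3 female lucOS NICD animals, where 0 allows a share of up to 1.12%. The TRBV14-TRBJ2-7 chain printed above was among them, with 2 T cells in 1 animal. None was found among 286, 77 and 49 T cells of the luc NICD animals, which allows up to 1.05%, 3.90% and 6.12%. The 2 male lucOS NICD animals had 1 of 557 and 1 of 633. These counts describe single libraries, and intervals and limits on shares here and below cover counting error only.

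Within the third lucOS animal the same protein was built several times. A TRBV13-2-TRBJ2-5 chain of 11 residues held 206 of its 1350 T cells (15.3%) in 3 nucleotide forms, which differ at 3 positions, in capitals. This set was chosen after its values had been seen.
TRBV13-2-TRBJ2-5, 110 T cells: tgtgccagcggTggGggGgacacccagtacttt
TRBV13-2-TRBJ2-5, 50 T cells: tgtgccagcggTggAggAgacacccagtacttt
TRBV13-2-TRBJ2-5, 46 T cells: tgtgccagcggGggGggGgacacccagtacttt
The first form was paired mostly with TRAV8D-2-TRAJ39 (98 of 106 T cells with a TRA contig). The others were paired mostly with TRAV14N-3-TRAJ22, in 37 of 48 and 31 of 45. The forms were unevenly spread over the libraries, with 35, 10 and 44 T cells in replicate 3 and 75, 40 and 2 in replicate 4. Over all animals, proteins encoded by 2 or more nucleotide forms within the animal held 0.858%, 11.96% and 16.7% of T cells in lucOS and 3.48%, 1.34% and 0.289% in luc. LucOS replicate 1 lay below luc replicates 1 and 2.

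The largest clonotype of each of the other animals is shown for comparison, with capitals for the bases that match neither the commonest start of a CDR3 with that V segment nor the commonest end with that J segment, that is, the junction.
TRBV12-1-TRBJ2-7, lucOS replicate 2, 127 of 828 T cells: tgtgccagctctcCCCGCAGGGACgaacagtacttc
TRBV17-TRBJ2-2, luc replicate 1, 31 of 402 T cells: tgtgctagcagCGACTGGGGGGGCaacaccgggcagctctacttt
TRBV3-TRBJ1-1, luc replicate 2, 15 of 599 T cells: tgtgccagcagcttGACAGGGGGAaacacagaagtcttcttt
TRBV12-2-TRBJ2-7, luc replicate 3, 24 of 691 T cells: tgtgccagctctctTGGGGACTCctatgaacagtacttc
The lucOS replicate 2 clonotype was paired with TRAV9D-3-TRAJ17 in all 85 T cells with a TRA contig and was the largest single clonotype of the 7 libraries, with 15.3% of its library's T cells (95% Wilson interval 13.04% to 17.95%). The luc clonotypes were paired with TRAV7-5-TRAJ33 (30 of 30), TRAV6-6-TRAJ22 (9 of 10) and TRAV13N-1-TRAJ32 (16 of 16).

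T cells alone in their clonotype were a smaller share in every lucOS library than in any luc library, before any correction for the number of T cells. They made up 63.4%, 31.6%, 46.0% and 45.7% of T cells in lucOS replicates 1 to 4 and 68.7%, 85.5% and 88.1% in luc replicates 1 to 3. Clonotypes of 10 or more T cells numbered 9, 14, 10 and 7 in the lucOS libraries and held 20.7%, 51.4%, 33.4% and 41.6% of the T cells. In luc there were 2, 1 and 1, with 10.4%, 2.50% and 3.47%. In the plot of clone sizes, lucOS replicate 1 and luc replicate 1 are the libraries of the 2 groups nearest to each other. In clonotypes of 5 or more T cells, 90.7% to 100% of the T cells with a TRA contig had the clonotype's commonest α chain, so a β clonotype mostly stood for one α and β pair.

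**Figure D1:**
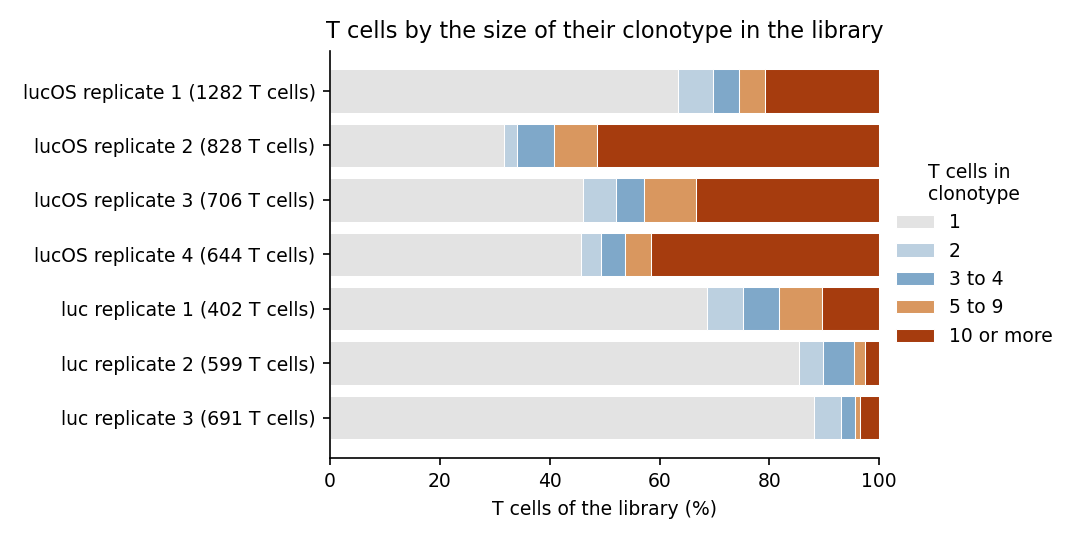
Share of each library's T cells, in percent (x axis), that lie in clonotypes of 1, 2, 3 to 4, 5 to 9 or 10 or more T cells (colours), for the 4 lucOS and 3 luc libraries (bars). T cells in clonotypes of 10 or more took 20.7% to 51.4% of lucOS libraries and 2.50% to 10.4% of luc libraries.

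The expanded share is the percentage of T cells that share their clonotype with another T cell when each library is thinned to the 402 T cells of the smallest. It was 29.6% in lucOS replicate 1, 65.6% in replicate 2 and 51.4% in the third animal, against 31.3%, 12.7% and 9.34% in luc replicates 1 to 3. The means were 48.9% ± 18.1 (SD, n = 3) and 17.8% ± 11.9 (SD, n = 3), a difference of 31.1 percentage points. The groups overlapped through the first replicate of each, and the exact two-sided permutation p was 0.2. With 3 animals against 3 this test cannot go below 0.1. Counted over all T cells without thinning, the means were 53.0% and 19.2%, and the groups did not overlap (exact p = 0.1). Thinned to 100 T cells, the means were 39.5% and 10.9%, and again the groups did not overlap (exact permutation p = 0.1). Thinned to 49 T cells, lucOS replicate 1 had 16.9% and luc replicate 1 had 15.9%. Whether the groups overlapped thus depended on the depth of thinning.

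The repeat probability is the chance that 2 T cells drawn from a library share their clonotype, averaged over the 2 libraries of the third lucOS animal. It was 0.910%, 3.68% and 2.31% in lucOS and 0.806%, 0.107% and 0.137% in luc, so the groups did not overlap, narrowly. The means were 2.30% ± 1.39 and 0.350% ± 0.396 (SD, n = 3 each), a 6.57-fold difference (exact p = 0.1). The fold moved with single animals, since the luc mean was 0.122% without luc replicate 1 and the lucOS mean 1.61% without lucOS replicate 2. When a clonotype was defined by both chains, the groups overlapped (2.10% against 0.418%, exact p = 0.2). The largest clonotype of a library held 7.57%, 15.3% and 9.43% of T cells in lucOS and 7.71%, 2.50% and 3.47% in luc. The groups overlapped (exact permutation p = 0.2). The 9.43% is the mean of 2 libraries whose largest clonotypes differ, at 7.22% (TRBV14-TRBJ2-7) and 11.6% (TRBV13-2-TRBJ2-5). Over both libraries the largest clonotype of that animal held 8.15% of T cells.

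Over the 13 repertoire measures compared, the groups did not overlap in 2 (15.4%), the repeat probability and the β CDR3 length. None of the 13 passed at an adjusted p of 0.05 (0%), which this number of animals cannot give, and the smallest adjusted p was 0.4875. The plot of measures per animal shows that lucOS replicate 1 lay inside or next to the luc range in the expanded share, repeat probability, TRBV13-2 and CDR3 neighbours.

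**Figure D2:**
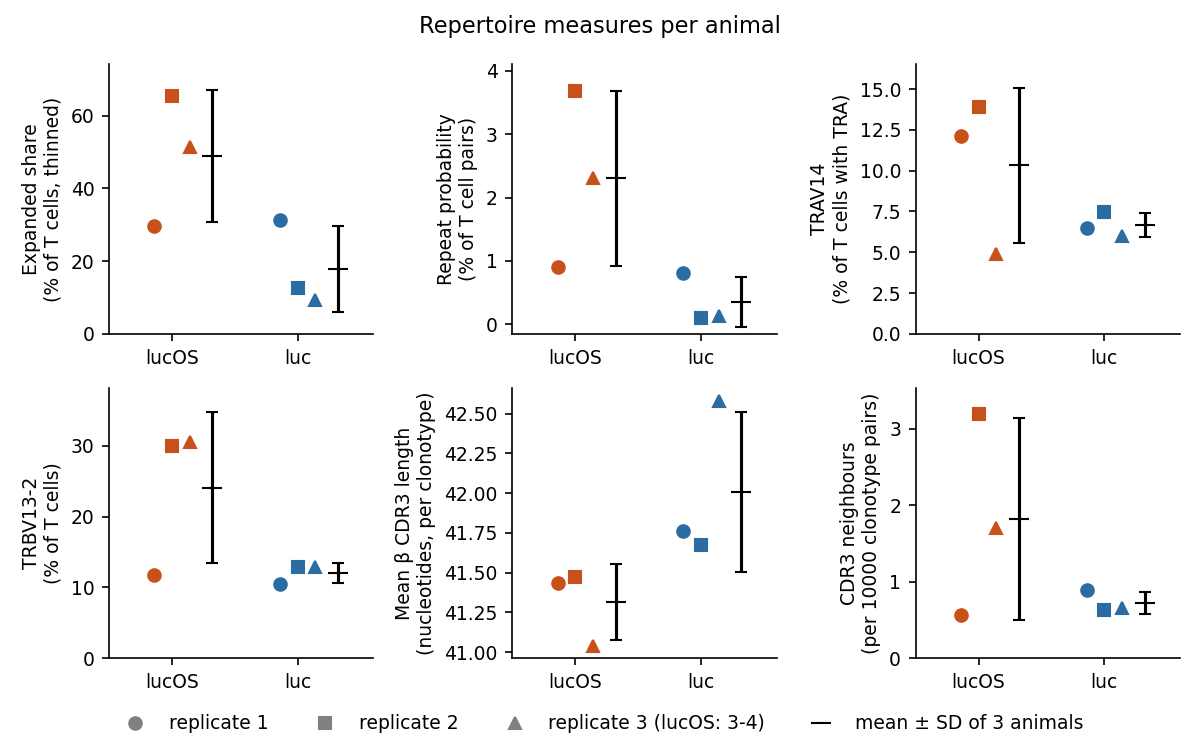
Each point is 1 animal (lucOS orange, luc blue; the third lucOS animal is the mean of its 2 libraries), and black bars give the mean ± SD of 3 animals. The y axes give the expanded share, repeat probability, TRAV14, TRBV13-2, mean β CDR3 length (axis not from 0) and CDR3 neighbours in the units shown. The repeat probability, from 0.910% to 3.68% in lucOS and 0.107% to 0.806% in luc, separates the groups by a narrow gap.

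Among J segments, TRBJ2-7 was higher in every lucOS animal than in any luc animal. It is the last J segment of the second β cluster (chr6:41543810-41543856 in GRCm38.p6, RefSeq). It was used by 32.7%, 45.9% and 30.4% of T cells in lucOS and 17.9%, 18.7% and 21.9% in luc. The log2 ratio of lucOS to luc was 0.89 (edgeR adjusted p = 0.0194). It was the only one of 12 TRBJ segments called (8.33%), with edgeR and with DESeq2. The groups did not overlap in 5 of 12 (41.7%). TRBJ1-2 (2.76% in lucOS against 5.96% in luc, log2 -1.09), TRBJ2-4 (4.64% against 8.48%, -0.86) and TRBJ2-3 (5.197% against 8.26%, -0.66) were lower in all 3 lucOS animals than in any luc animal and were not called (edgeR adjusted p = 0.122, 0.122 and 0.231). TRBJ2-5 (0.53, edgeR adjusted p = 0.231) was high in 1 animal, with 27.1% of T cells in the third lucOS animal and 9.20% to 12.7% in the other 5. TRBJ1-5 (0.85) was high in lucOS replicate 2 (6.88%), with 2.17% to 3.28% in the others. The sum of the TRBJ2 cluster was 67.9%, 82.1% and 80.2% in lucOS and 69.9%, 65.6% and 69.3% in luc, with overlapping groups (exact permutation p = 0.3).

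The TRBJ2-7 call was lost when each clonotype counted once. Counted once per clonotype, TRBJ2-7 made up 20.8%, 24.7% and 22.9% in lucOS and 20.1%, 19.0% and 19.2% in luc, and edgeR called no TRBJ segment, with a log2 ratio of 0.20 for TRBJ2-7 (edgeR adjusted p = 0.281). It was used by 37 of the 72 lucOS clonotypes of 5 or more T cells and by 2 of the 12 in luc, against 339 of 1637 and 271 of 1397 clonotypes of 1 T cell. The cut of 5 T cells was not corrected for the larger number of T cells in lucOS animals. The call was also lost without luc replicate 1, 2 or 3 and without lucOS replicate 4, but there the log2 ratio stayed at 0.84, 0.86, 0.99 and 0.85 (edgeR adjusted p = 0.259, 0.250, 0.0786 and 0.0628). Without lucOS replicate 1 edgeR called TRBJ1-2 and TRBJ2-4 as well.

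**Figure D3:**
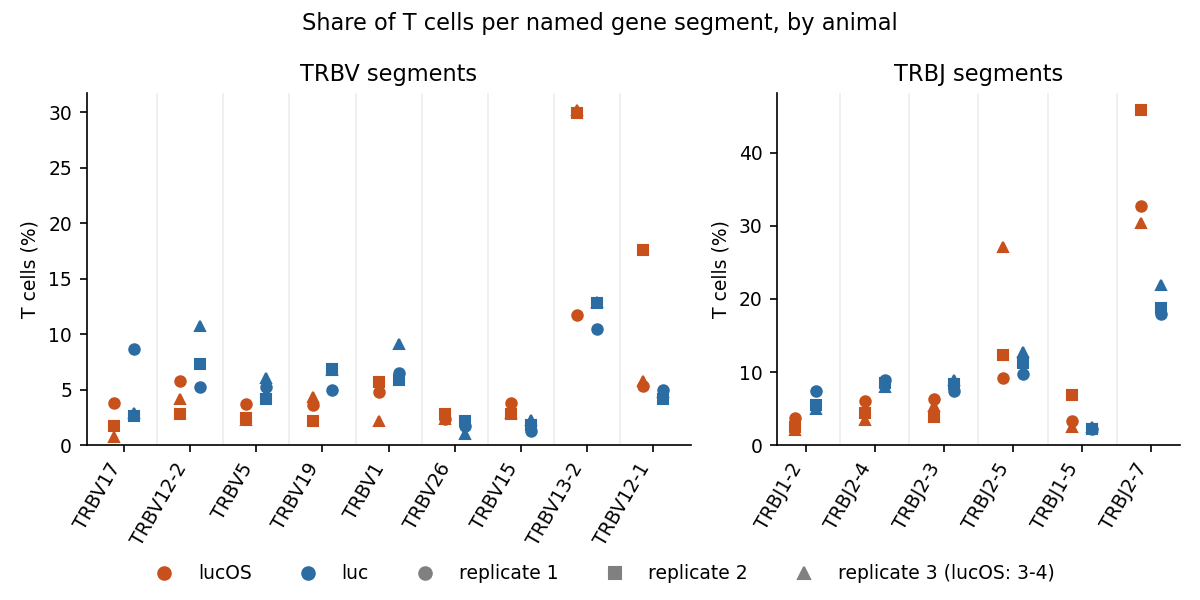
Percentage of T cells (y axis) that use each named TRBV (left) and TRBJ (right) segment, ordered by the fitted lucOS to luc ratio, with 1 point per animal (lucOS orange, luc blue). TRBJ2-7 was 30.4% to 45.9% in lucOS and 17.9% to 21.9% in luc, and TRBV13-2 was near 30% in 2 lucOS animals only.

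No TRBV segment was called among 19 tested (0%) by edgeR or DESeq2. At an unadjusted p under 0.05 there was 1 with edgeR and 4 with DESeq2. TRBV13-2 (chr6:41121396-41121832) was used by 11.8%, 30.0% and 30.2% of T cells in lucOS and 10.4%, 12.9% and 12.9% in luc. Its log2 ratio was 0.99 (edgeR adjusted p = 0.270). LucOS replicate 1 lay within the luc range, and without it TRBV13-2 passed (1.31, edgeR adjusted p = 1.06e-10), as did TRBV17 (-1.96, 0.0206). That fit drops the 1 lucOS animal without a high TRBV13-2 share and keeps 2 with near-equal values, so its small p is no added support. With any other single animal left out the edgeR adjusted p of TRBV13-2 was 0.357 to 0.602. TRBV17 had the smallest p over all animals (log2 -1.13, edgeR adjusted p = 0.270), with 3.82%, 1.69% and 0.741% in lucOS and 8.71%, 2.67% and 2.89% in luc. The 8.71% included the 31 T cells of the luc replicate 1 clonotype printed above.

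The lucOS and luc animals did not overlap in 6 of the 19 TRBV segments (31.6%). TRBV15 (0.78), TRBV12-1 (1.03) and TRBV26 (0.61) were higher in all lucOS animals, and TRBV5 (-0.87), TRBV19 (-0.86) and TRBV1 (-0.77) were lower. The edgeR adjusted p of these was 0.270 to 0.303. TRBV15 was 3.82%, 2.78% and 2.89% in lucOS and 1.24%, 1.84% and 2.32% in luc, and, counted once per clonotype, 3.91% against 1.78%, where it was the only TRBV segment called (log2 1.11, edgeR adjusted p = 0.0194). TRBV12-1, which includes the largest clonotype of lucOS replicate 2, was 5.30%, 17.6% and 5.78% in lucOS and 4.98%, 4.17% and 4.78% in luc. TRBV12-2 was 5.77%, 2.78% and 4.15% in lucOS and 5.22%, 7.35% and 10.7% in luc (-0.87, edgeR adjusted p = 0.270). TRBV12-1 and TRBV12-2 together averaged 13.8% ± 5.75 in lucOS and 12.4% ± 2.75 in luc (SD, n = 3 each), with an exact permutation p of 0.9.

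TRBV13-2 was a larger share of expanded than of single T cells in 2 of the 3 lucOS animals. Among T cells in clonotypes of 5 or more, it was used by 43 of 328 (13.1%), 200 of 491 (40.7%) and 333 of 654 (50.9%) in the 3 lucOS animals. In luc it was used by 0 of 73, 0 of 27 and 0 of 30, which allows up to 4.11%, 11.1% and 10% of those T cells. These limits take each T cell as a separate draw, which T cells of the same clonotype are not, so they are too low. Among T cells alone in their clonotype the share was 11.7%, 10.3% and 10.3% in lucOS and 15.2%, 14.3% and 12.8% in luc. In lucOS replicate 1 the shares were thus alike, and TRBV14 was the larger there, with 127 of 328 (38.7%) of the T cells in clonotypes of 5 or more. TRBV14 was used by 2.04% and 15.6% of such T cells in the other lucOS animals and by 10.96%, 25.9% and 20% in luc. The luc shares rest on 7, 3 and 2 expanded clonotypes, those of lucOS on 18, 24 and 30, of which 4, 11 and 7 used TRBV13-2. Here and below, the cut of 5 T cells was not corrected for the number of T cells per animal. That number was 1282, 828 and 1350 in lucOS and 402, 599 and 691 in luc. A clonotype of equal frequency thus reaches the cut more readily in lucOS. Counted once per clonotype over all sizes, TRBV13-2 made up 12.7% in lucOS and 13.6% in luc, which is the opposite order to that of T cells.

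**Figure D4:**
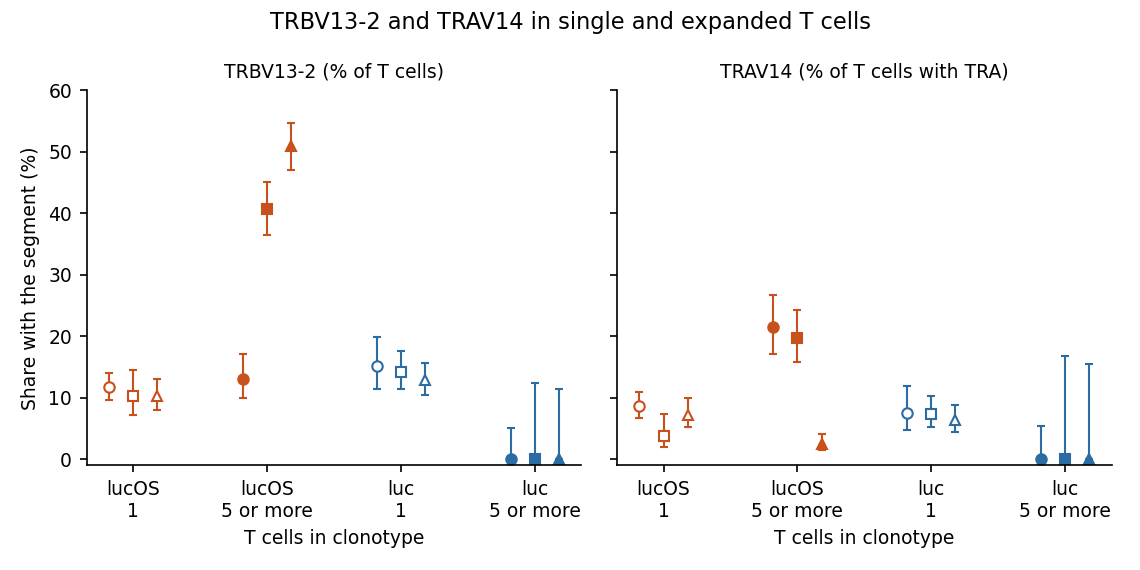
Share of T cells that use TRBV13-2 (left) and share of T cells with a TRA contig that use TRAV14 (right), in percent with 95% Wilson intervals, for T cells alone in their clonotype (open) and in clonotypes of 5 or more (filled), 1 point per animal. In clonotypes of 5 or more both segments were at 0 in luc, and in lucOS TRBV13-2 took 13.1% to 50.9% and TRAV14 2.48% to 21.6%. TRAV14N is not counted, and the intervals take each T cell as a separate draw.

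TRAV14, the α segment of OT-I, was high in 2 of the 3 lucOS animals. Counting TRAV14 and its copy TRAV14D, it was used by 128 of 1055, 86 of 618 and 56 of 1134 T cells with a TRA contig in lucOS, and by 21 of 323, 35 of 467 and 32 of 531 in luc. The shares were 12.1%, 13.9% and 4.91% (mean of the 2 libraries) against 6.50%, 7.49% and 6.03%. The third lucOS animal was the lowest of the 6, and the groups overlapped. Means were 10.3% ± 4.77 and 6.67% ± 0.749 (SD, n = 3 each, exact permutation p = 0.4, adjusted 0.52).

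A further near-identical copy, TRAV14N, turns the order of the third animal around. It was the entry of 133 T cells there, 111 of them with TRBV13-2, and of 19 and 3 in lucOS replicates 1 and 2 and 1, 5 and 9 in luc. With TRAV14N counted too, a choice made after the data were seen, the shares were 13.9%, 14.4% and 16.8% in lucOS and 6.81%, 8.57% and 7.72% in luc. The groups then did not overlap (means 15.1% and 7.70%, exact permutation p = 0.1). Whether a contig belongs to TRAV14N or to the other copies is uncertain, so this result depends on which copies are counted.

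In clonotypes of 5 or more, TRAV14 with TRAV14D was used by 61 of 283 (21.6%), 69 of 350 (19.7%) and 14 of 564 (2.48%) T cells in lucOS. In luc it was used by 0 of 67, 0 of 19 and 0 of 21, which allows up to 4.48%, 15.8% and 14.3%. These limits take each T cell as a separate draw and are too low, since the luc T cells came from 7, 3 and 2 clonotypes. The 2.48% leaves out TRAV14N. Of the 18, 24 and 29 such lucOS clonotypes with a TRA contig, 2, 6 and 1 used TRAV14 or TRAV14D. With TRAV14N counted too the numbers were 2, 6 and 5, and 0 in each luc animal. Among T cells alone in their clonotype TRAV14 with TRAV14D was 8.60%, 3.81% and 7.22% in lucOS and 7.58%, 7.39% and 6.30% in luc. Counted once per β clonotype the means were 7.54% and 7.27% (exact permutation p = 0.7).

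The largest clonotype of TRAV14 and TRAV14D T cells, with TRAV14N left out, differed between the 3 lucOS animals. In lucOS replicate 1 the largest, TRBV13-3-TRBJ1-3 with TRAV14-1-TRAJ33, held 50 of 128. In replicate 2 it was TRBV13-2-TRBJ2-7 with TRAV14D-2-TRAJ6 (20 of 86), and in the third animal TRBV29-TRBJ2-1 with TRAV14-1-TRAJ56 (14 of 56). A larger clonotype of the third animal lay among the TRAV14N T cells left out. It was TRBV13-2-TRBJ2-7 with TRAV14N-3-TRAJ6, in 43 of 43 T cells with a TRA contig. Its TRBV, TRBJ and TRAJ segments are those of the replicate 2 clonotype, so this difference depends on the copies counted. TRBV13-2 was the β segment of 8.59%, 45.3% and 1.79% of TRAV14 and TRAV14D T cells in lucOS and of 14.3%, 22.9% and 6.25% in luc. The value of 1.79% depends on the copies counted. In that animal 111 of the 133 T cells with TRAV14N used TRBV13-2. The pairing of OT-I, TRAV14 with TRBV12-1 or TRBV12-2, made up 7.81%, 2.33% and 5.36% of TRAV14 and TRAV14D T cells in lucOS. In luc it made up 9.52%, 5.71% and 15.6%. LucOS replicate 1 lay between luc replicates 2 and 1, and the other lucOS animals lay below all luc animals. The shares of luc replicates 1 and 2 rest on 2 T cells each, that of lucOS replicate 2 on 2 and that of the third lucOS animal on 3.

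No single TRAV or TRAJ entry was called. Of 40 TRAV entries tested, 0 passed (0%) with edgeR and with DESeq2, with 3 and 4 at an unadjusted p under 0.05, and the groups did not overlap in 4 (10%). Of 36 TRAJ segments, 0 passed (0%) with either tool, with 4 and 3 at an unadjusted p under 0.05, and the groups did not overlap in 2 (5.56%). The smallest adjusted p was 0.431 for TRAV and 0.407 for TRAJ (edgeR). On simulated counts a single TRAV or TRAJ segment changed 4-fold was found in 20% of draws among 40 TRAV and 21% among 36 TRAJ segments, against 81% among 19 TRBV and 96% among 12 TRBJ segments. A segment changed 2-fold was found in 1.03% of draws for TRAV, 4% for TRAJ, 16% for TRBV and 21% for TRBJ. The simulated counts had one spread per family and no clones, so these rates need not hold for the real counts.

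Several of the α segments with the smallest p held one large clonotype. TRAJ16 (2.91, edgeR adjusted p = 0.407) was 8.63%, 0% and 9.61% in lucOS and 0.310%, 1.07% and 0.942% in luc, and the TRAV10-TRAJ16 receptor printed above gave 86 of its 91 and 95 of its 109 T cells. TRAJ17 (2.49) was 15.9% in lucOS replicate 2, where the largest clonotype gave 85 of 98 T cells, and 0.753% to 1.71% elsewhere. TRAJ6 (2.82) was 0.474%, 7.28% and 4.14% in lucOS and 0.929%, 0% and 0.753% in luc. TRAV8-1 (2.40) was 9.39% in lucOS replicate 2, TRAV8D-2 (2.12) was 9.35% in the third lucOS animal and TRAV14-1 (1.85) was 5.59%, 3.88% and 2.29% in lucOS against 2.17%, 0.428% and 0.753% in luc. Among the lower entries, TRAV7-5 (-2.66) was 10.5% in luc replicate 1, where the largest clonotype gave 30 of 34 T cells, and 0.324% to 1.51% in the other 5 animals. TRAJ34 (-1.32), lower in every lucOS animal, had 1.33%, 0.971% and 1.15% in lucOS and 3.41%, 2.36% and 3.01% in luc. Means of the others are given as lucOS against luc. TRAV21-DV12 (-1.31) averaged 0.600% against 1.58%, TRAJ44 (-1.01) 0.868% against 1.81%, TRAV1 (-1.75) 1.37% against 4.56% and TRAJ33 (-1.25) 3.99% against 9.56%. The edgeR adjusted p of these named α entries was 0.407 to 0.610.

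The β CDR3s of the lucOS animals were slightly shorter. Averaged over clonotypes, each counted once, the CDR3 had 41.4, 41.5 and 41.0 bases in lucOS and 41.8, 41.7 and 42.6 in luc. The groups did not overlap, at means of 41.3 ± 0.239 and 42.0 ± 0.501 (SD, n = 3 each, exact permutation p = 0.1). Averaged over T cells the means lay further apart, at 39.3 and 42.0 bases (exact permutation p = 0.1). The TRBV14-TRBJ2-7 chain and the TRBV13-2 chains with TRBJ2-7 or TRBJ2-5 printed above have 33 bases. CDR3s of this length were chosen for a closer description after their values had been seen. They were carried by 14.9%, 16.1% and 32.2% of T cells in lucOS and 3.23%, 3.67% and 3.62% in luc.

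Among TRBV13-2 T cells this length was the more frequent in every lucOS animal. Of TRBV13-2 T cells, 33 of 151 (21.9%), 109 of 248 (44.0%) and 297 of 408 (72.8%) had a CDR3 of 33 bases in lucOS, against 1 of 42 (2.38%), 1 of 77 (1.30%) and 7 of 89 (7.87%) in luc. Counted once per clonotype the shares were 4.76%, 20% and 20.8% in lucOS and 2.38%, 1.33% and 7.23% in luc, so lucOS replicate 1 then lay within the luc range. In clonotypes that use other V segments, each counted once, 33 bases were found in 5.35%, 5.24% and 4.88% in lucOS and 4.198%, 4.54% and 3.27% in luc. Of the 72 lucOS clonotypes of 5 or more T cells, 19 had 33 bases and 13 of those used TRBV13-2, and of the 12 in luc none had 33 bases.

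**Figure D5:**
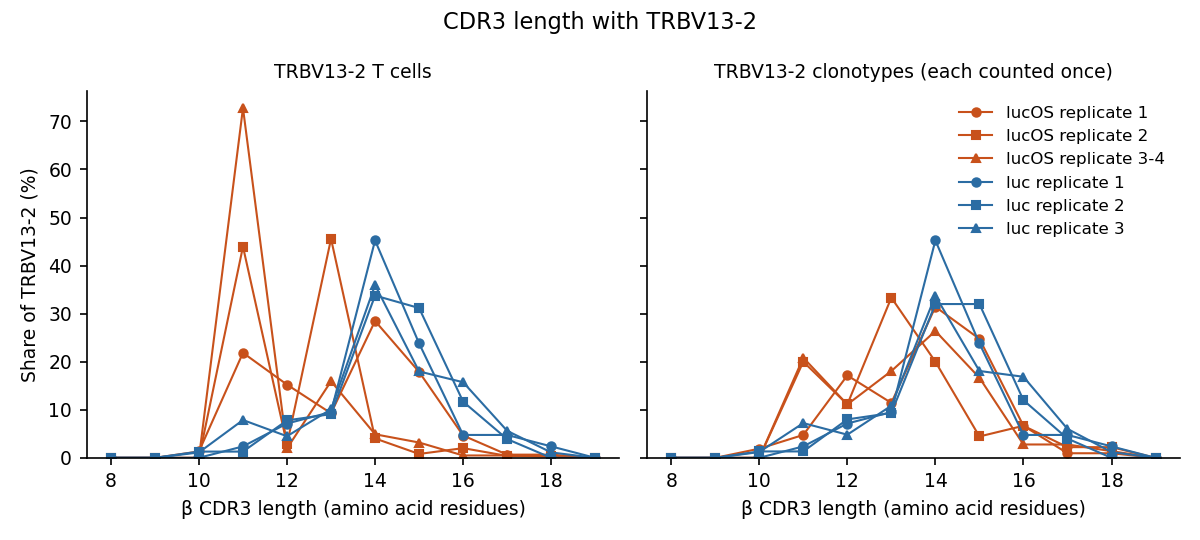
Share of TRBV13-2 T cells (left) and of TRBV13-2 clonotypes, each counted once (right), in percent, by β CDR3 length in amino acid residues, 1 line per animal (lucOS orange, luc blue). At 11 residues the T cell share was 21.9% to 72.8% in lucOS and 1.30% to 7.87% in luc, and the luc lines of T cells peak at 14 residues.

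Similar, non-identical β chains were counted as CDR3 neighbours, pairs of distinct chains with the same TRBV and length that differ at 1 residue. Per 10000 pairs of clonotypes there were 0.561, 3.19 and 1.70 in lucOS and 0.892, 0.625 and 0.650 in luc. LucOS replicate 1 was the lowest of the 6 animals and the other lucOS animals the highest (means 1.82 and 0.722, exact permutation p = 0.4). Without lucOS replicate 1 the lucOS mean was 2.45 and without lucOS replicate 2 it was 1.13.

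Libraries of one animal shared far more clonotypes than animals did. The 2 libraries of the third lucOS animal had 59 clonotypes in common by nucleotides, 50.1% of T cells in replicate 3 and 57.0% in replicate 4, and no pair of animals had more than 4. All 12 clonotypes of 5 or more T cells in replicate 4 were found in replicate 3, and 18 of 21 the other way. Their sizes differed between the libraries. The TRBV14-TRBJ2-7 clonotype held 7.22% and 7.92% of T cells, whereas TRBV13-2-TRBJ2-5 clonotypes held 4.96% and 11.6%, and 1.42% and 6.21%, for the forms of 110 and 50 T cells. A TRBV13-2-TRBJ2-7 clonotype of 39 bases held 2.55% and 4.66%. Its α chain was TRAV14N-3-TRAJ6 in 43 of 43 T cells with a TRA contig. The clonotype is shown for its size, with the junction in capitals.
TRBV13-2-TRBJ2-7, 18 and 30 T cells in replicates 3 and 4: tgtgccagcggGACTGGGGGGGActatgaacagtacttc
TRBV13-2 as a whole was 23.7% in replicate 3 and 37.4% in replicate 4, a wider gap than the 12.03 percentage points between the group means.

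T cells with invariant α chains were few. Invariant NKT cells, which recognise lipids and carry TRAV11 with TRAJ18, were 22 of 1282, 4 of 828 and 17 of 1350 in lucOS and 5 of 402, 13 of 599 and 21 of 691 in luc. Their mean share was 1.15% ± 0.622 in lucOS and 2.15% ± 0.898 in luc (SD, n = 3 each, exact permutation p = 0.3). Of all 82, 61 used TRBV13-2, TRBV1 or TRBV29, the β segments usual for this lineage. In lucOS these cells compare with 151, 248 and 408 TRBV13-2 T cells. Mucosal-associated invariant T cells, which recognise vitamin B metabolites and carry TRAV1 with TRAJ33, were 54 of 691 (7.81%) in luc replicate 3 and 0.234% to 1.84% in the other animals. In luc replicate 3 they formed 50 β clonotypes, none with more than 2 T cells, and 40 of the 54 used TRBV13-2, TRBV13-3 or TRBV19. This animal's share is contained in the TRAV1 and TRAJ33 values above.

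T cells with 2 TRA contigs were 8.11%, 3.99% and 15.1% in lucOS and 7.46%, 9.85% and 7.38% in luc (exact permutation p = 0.8). In the third lucOS animal 38 of its 206 such cells belonged to the TRBV13-2-TRBJ2-5 clonotype of 50 T cells. T cells without a TRA contig were 17.7%, 25.4% and 16.2% in lucOS and 19.7%, 22.04% and 23.2% in luc (exact permutation p = 0.6).

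Whether the lucOS to luc difference was particular to sgp53 tumours was tested against the 3 lucOS and 3 luc female animals with NICD tumours, whose libraries held 49 to 432 T cells. Of 12 measures, 0 passed at an adjusted p of 0.05 (0%), and none had an unadjusted exact permutation p under 0.05. The smallest was that of TRAV14, where lucOS minus luc was 3.65 percentage points in sgp53 and -4.85 in NICD tumours, a difference of 8.50 (exact p = 0.06, adjusted 0.72). With TRAV14N counted too the difference was 11.9 and the exact p 0.015, and without the third lucOS animal it was 11.2 (exact p = 0.015). Neither of these p-values is adjusted. The first setting was chosen after the data were seen, and the second drops the lucOS sgp53 animal with the lowest TRAV14 share. In luc NICD replicates 2 and 3 only 51 and 38 T cells had a TRA contig. The expanded share, thinned here to 49 T cells, was 25.4 percentage points higher in lucOS in sgp53 tumours and 16.8 in NICD tumours (exact permutation p of the difference 0.51, adjusted 0.97). TRBV13-2 was 12.03 and 10.1 percentage points higher in lucOS (exact permutation p = 0.885). Of 19 TRBV segments, 0 differed in this contrast between the tumour kinds (0%, edgeR), with 1 at an unadjusted p under 0.05.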

How the data were processed

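For each library the authors deposited a table of assembled receptor contigs with counts of UMIs and reads. The submitters' processing notes list Cell Ranger and Seurat as tools and mm10 as the build, with no version given. The deposited bulk expression table was not used. Contigs flagged as cell, high confidence and productive were kept, and groups came from titles and genotype labels.

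The V entry that joins TRBV12-2 and TRBV13-2 was counted as TRBV13-2, since 97.7% of its clonotypes start as plain TRBV13-2 does. TRAV14 includes TRAV14D; adding TRAV14N was an alternative chosen after the data were seen. Measures were compared per animal, the libraries of the third lucOS animal averaged (summed for segments), with two-sided exact permutation tests adjusted over 13 measures (Benjamini-Hochberg). Segments with a mean share of at least 1% were tested on T cell counts with edgeR 4.0.16 (quasi-likelihood, R 4.3.3), adjusted per family, called under 0.05; DESeq2 1.42.0 was an alternative. Nothing says whether animals were processed together. The usage step was tested on simulated counts. Other steps ran in Python 3.11.15 (scipy 1.17.1, pandas 2.3.3, numpy 2.4.6). Possible doublets were kept and left out as an alternative.

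The members and lists were chosen with earlier results of these data known. Named segments were the called ones, per family the 3 with the smallest p in each direction, TRBV segments without overlap, and TRBV13-2, TRBV12-1, TRBV12-2 and TRAV14. Named clonotypes were the largest of each animal, those in both libraries of one animal and those in 2 or more animals, at most 4 of each kind; 1 is not reported here. Segment positions are RefSeq's for GRCm38.p6.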

Additional observations from a re-analysis of the deposited data

Results flagged for a closer look

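The log2 ratio of lucOS to luc for TRBV26 was 2.09 higher in sgp53 than in NICD tumours (edgeR adjusted p = 0.0537), the 1 segment of 19 with an unadjusted p under 0.05, which is what brings it here. TRBV26 was used by 2.34%, 2.78% and 2.37% of T cells in lucOS sgp53, 1.74%, 2.17% and 1.01% in luc sgp53, 1.85%, 2.65% and 0.746% in lucOS NICD and 5.24%, 3.90% and 4.08% in luc NICD animals. The 3 luc NICD values rest on 15, 3 and 2 T cells and those of lucOS NICD on 8, 4 and 2. Those of luc sgp53 rest on 7, 13 and 7 and those of lucOS sgp53 on 30, 23 and 32. Groups of 3 animals are too small to test for a single value that stands apart.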

How the results depend on the processing

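The exact tests of 3 against 3 animals cannot give a p under 0.1. With a TRA contig required, the share of T cells without one has no value. TRBV13-2 changed direction with each clonotype counted once (-0.962 percentage points; log2 ratio in the edgeR fit -0.17), and with the joined V entry counted as TRBV12-2 (-0.490), a setting chosen after the data were seen, as were keeping that entry apart, which left the TRBV calls at 0, and counting TRAV14N. The share with 2 TRA contigs changed direction with each clonotype counted once (-1.04), without the third lucOS animal (-2.18) or its replicate 3 (-0.00586), ranging from -2.18 to 3.40 over the animals left out. TRBV12 ranged from -1.90 (without lucOS replicate 2) to 3.34. TRBJ2-5 ranged from -0.0687 (without the third lucOS animal) to 0.816 on the log2 scale. The number of edgeR calls with each clonotype counted once was 1 for TRBV and 0 for TRBJ, and with 1 animal or library left out 0 to 2 for TRBV, 0 to 3 for TRBJ, 0 to 2 for TRAJ and 0 to 1 for the TRBV difference from NICD tumours. Against NICD tumours, leaving out 1 sgp53 animal moved the difference from -2.65 to 1.24 for the largest clonotype, -0.370 to 0.0858 for CDR3 length, -0.516 to 0.869 for repeat probability, -1.32 to 8.06 for TRBV13-2, -0.00651 to 5.24 for TRBV12 and -1.72 to 3.86 for 2 TRA contigs, so each of these changed direction. The cause of these changes was not tested. No paired analysis was possible because the labels number no replicate across groups.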
